A study of Mus musculus with 12 samples.

Results

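The genes described here make sterols and fatty acids under the SREBP transcription factors. They are 31 named genes out of the 38924 in each deposited table, picked by name with earlier results of the same data known. Of these, 30 were found by their symbol and 1, Msmo1, by its Ensembl identifier, because the tables list it under an older name. They fall into 7 genes of the mevalonate arm, 11 genes that carry squalene to cholesterol, 5 SREBP factors, regulators and a sterol carrier, 4 genes of fatty acid synthesis and 4 fatty acid desaturases. All 31 passed the filter on low counts, which kept 17765 genes.

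The RNA came from whole spinal cord of B6J.Cg mice aged 8 weeks, in 12 libraries. Gars encodes glycyl-tRNA synthetase, which attaches glycine to its tRNAs, and the mutant animals are described as carrying its C201R change on one allele (genotype tag C201R+/-). The other animals are titled WT, with the genotype tag C201R+/+. The titles also give a sex, and each of the 4 titled groups holds 3 libraries. The change is a heritable allele of a mouse line, carried by all cells of the cord. The labels do not state that libraries are from different animals, so p-values measure the spread between libraries, which may be technical.

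The labels disagree on genotype for 4 of the 12 libraries. Libraries 4 and 9 are titled WT but have C201R in their library names, and libraries 11 and 12 are titled C201R but have WT in their library names. Both readings give 6 libraries for each genotype, and both are reported below, beside the 8 libraries on which title and name give the same genotype. The 3 views share most of their libraries, so they are not independent of one another. Total estimated counts ran from 27175421 to 38271405 per library. Gars itself was between 130 and 155 CPM (counts over the TMM-adjusted library size) in every library, and since the change is a substitution its level does not check the labels. Its log2 difference, C201R minus WT, was 0.03 ± 0.05 (SE) by title and 0.15 ± 0.03 by library name (edgeR adjusted p = 0.934 and 0.0343). In 6 of the 12 libraries sex-linked transcripts went against the sex in the title. Xist, which silences the inactive X chromosome, was high in 5 libraries titled C201R and 1 titled WT, but in 3 libraries of each genotype by library name, and in 3 C201R and 1 WT library of the undisputed 8. These values moved no library to another group, and the fits use the sex of the titles. No fit used sex as read from these transcripts. By title and in the undisputed 8, genotype is therefore partly confounded with it, and its part in the differences was not tested.

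SREBP2, encoded by Srebf2, and SREBP1, encoded by Srebf1, are membrane-bound transcription factors of the endoplasmic reticulum. When membrane sterol is low, the escort protein SCAP carries them to the Golgi, where proteases release the active fragment. When sterol is high, INSIG proteins hold SCAP back, and oxysterol-activated liver X receptors raise Srebf1. SREBP2 mainly drives cholesterol synthesis and the shorter SREBP1 form mainly drives fatty acid synthesis. In the spinal cord, cholesterol is made locally because lipoprotein cholesterol does not cross the blood-brain barrier, and myelinating oligodendrocytes are heavy users of both pathways.

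In TPM, a length-corrected scale on which genes can be compared, the 31 genes together made up 0.418 to 0.475% of all transcripts in a library. Scd2, the main stearoyl-CoA desaturase of the nervous system, had the highest level, at 1478 ± 64.2 TPM (SD, n = 12), and ranked 34 among all genes. Its lowest library, 1394 TPM, was above the highest library of every other gene of the set. Hmgcs1, the cytosolic HMG-CoA synthase, followed at 383 ± 31.2 TPM. Scd1, a second stearoyl-CoA desaturase, was at 341 ± 53.2 TPM and overlapped Hmgcs1 in range. Acly, which cuts cytosolic citrate into acetyl-CoA, was at 205 ± 17.6 TPM. Fads1 (a delta-5 desaturase), Msmo1 (a sterol C4-methyl oxidase) and Fasn (fatty acid synthase) were at 168 ± 9.46, 167 ± 10.9 and 148 ± 21.5 TPM and did not separate beyond their spread. The lowest was Stard4, a cytosolic sterol carrier, at 24.5 ± 1.25 TPM, next to Hsd17b7, a sterol 3-keto reductase, at 25.2 ± 1.70 TPM. Their ranges overlapped. Srebf2 varied least, with a coefficient of variation of 3.12% over the 12 libraries at 87.8 TPM. Scd1, Fasn and Srebf1 varied most, at 15.6, 14.6 and 13.4%.

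**Figure D1:**
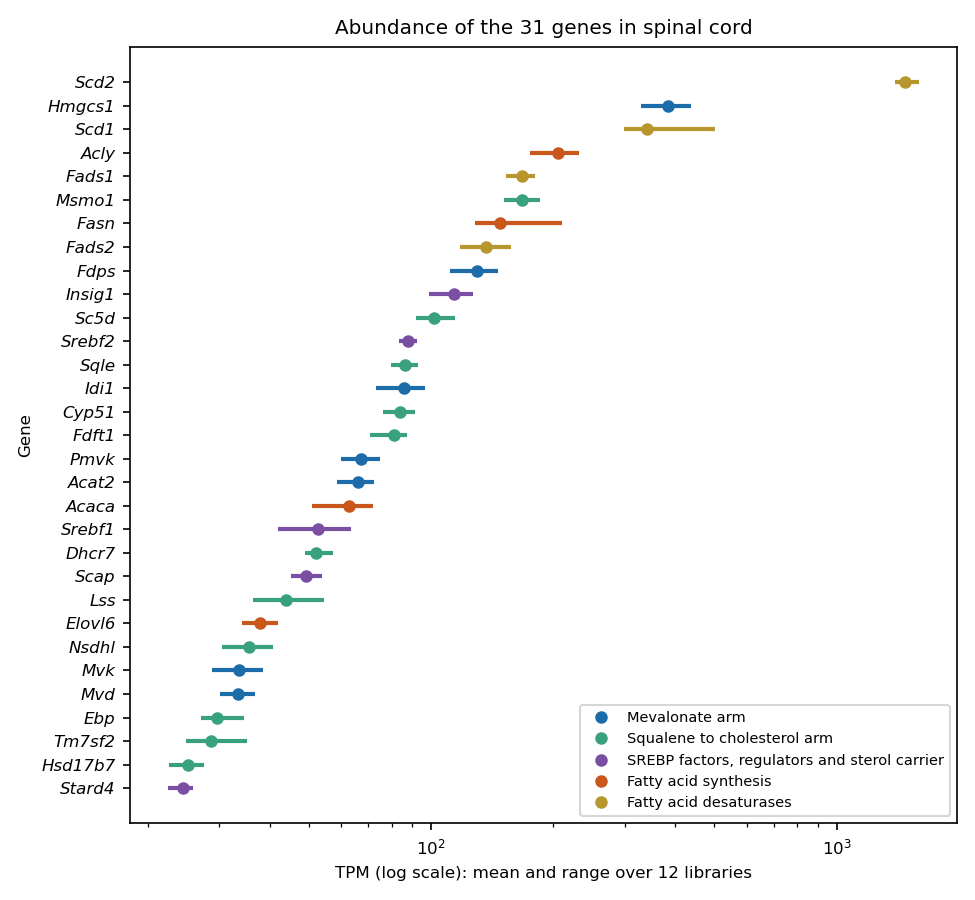
Mean level of each of the 31 genes in TPM (log axis), with a line from the lowest to the highest of the 12 libraries and colours for the roles in the pathway. Scd2 stands apart at the top, Stard4 is lowest at 24.5 TPM, and the long lines of Scd1 and Fasn reach to a single library, number 3.

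Promoter windows of 300 bases (250 before and 50 after the annotated start, RefSeq, GRCm38.p6) were found for 24 of the 31 genes. No window was found for Fdps, Fdft1, Sqle, Stard4, Scd1, Scd2 and Fads1. The search covered 3 short motifs on both strands: the CCAAT box (CCAAT or ATTGG), to which the SREBP partner NF-Y binds, the E-box CACGTG, and one spelling of the sterol regulatory element, TCACNCCAC. None of these is contained in another. A CCAAT box was present in 19 of the 24 genes (79.2%) against 41.1% of all 27025 genes in the table. In 18 of them a match lay before the start, in 15 within 100 bases of it, and the median first base of the nearest match was at -46. The E-box was present in 5 genes (20.8%, against 8.09%) and the sterol regulatory element in 1, Hmgcs1 (4.17%, against 1.44%). The 27025 genes were not matched to the 24 for level in the cord. Counted by window, 66.7% of the 30 windows of these 24 genes held a CCAAT box, against 37.4% of all 32851 windows. A match is a description of the letters and does not show a bound site. The stretches below end at the base before the start, with every match in capitals, for Hmgcs1 and for genes whose differences are described further on. The start is that of RefSeq, and gene bounds of another annotation (GENCODE) differ for some. There Idi1 begins at 8885501 and Msmo1, on the minus strand, at 64733792, so both stretches lie inside the gene. Those of Cyp51 and Hsd17b7 lie partly inside. The sequence of Acly is shown because it was the 1 gene that passed the test with the library-name genotype, and no match lies in its 250 bases before the start.
Hmgcs1 (chr13:119690191-119690350, plus strand): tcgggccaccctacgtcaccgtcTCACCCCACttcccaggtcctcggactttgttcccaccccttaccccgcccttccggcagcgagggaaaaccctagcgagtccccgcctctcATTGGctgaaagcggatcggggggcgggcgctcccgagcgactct
Idi1 (chr13:8885506-8885605, plus strand): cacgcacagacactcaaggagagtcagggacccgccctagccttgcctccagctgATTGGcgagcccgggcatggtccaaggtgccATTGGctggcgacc
Cyp51 (chr5:4104698-4104797, minus strand): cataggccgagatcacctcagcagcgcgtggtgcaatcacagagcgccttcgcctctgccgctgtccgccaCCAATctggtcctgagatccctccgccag
Msmo1 (chr8:64733579-64733678, minus strand): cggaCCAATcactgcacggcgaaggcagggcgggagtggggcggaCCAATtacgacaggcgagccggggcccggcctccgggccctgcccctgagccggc
Nsdhl (chrX:72918421-72918520, plus strand): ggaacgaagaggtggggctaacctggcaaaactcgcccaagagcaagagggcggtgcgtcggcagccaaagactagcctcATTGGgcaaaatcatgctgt
Hsd17b7 (chr1:169969206-169969305, minus strand): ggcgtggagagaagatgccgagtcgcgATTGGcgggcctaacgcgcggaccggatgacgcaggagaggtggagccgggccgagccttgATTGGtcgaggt
Sc5d (chr9:42264301-42264410, minus strand): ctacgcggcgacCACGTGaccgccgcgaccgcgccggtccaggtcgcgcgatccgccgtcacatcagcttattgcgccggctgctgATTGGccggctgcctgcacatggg
Acly (chr11:100528001-100528250, minus strand): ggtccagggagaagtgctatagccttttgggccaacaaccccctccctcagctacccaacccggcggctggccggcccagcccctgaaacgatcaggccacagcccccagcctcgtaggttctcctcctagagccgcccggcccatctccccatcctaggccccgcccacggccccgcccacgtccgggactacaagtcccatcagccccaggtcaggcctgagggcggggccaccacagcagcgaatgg
Idi1, Msmo1 and Hsd17b7 each carry a pair of CCAAT boxes within these 100 bases, whereas Cyp51, Nsdhl and Sc5d carry a single one. The capitals of Hmgcs1 hold the sterol element first and the CCAAT box nearer the start, and those of Sc5d hold the E-box first.

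By library-name genotype, Acly fell in C201R libraries and was the 1 gene of the 31 that passed the threshold (edgeR quasi-likelihood test, Benjamini-Hochberg adjusted p under 0.05). The share of all tested genes called lower in that comparison was 0.546%, and 0.169% were called higher. The 18 enzymes of the mevalonate and squalene to cholesterol arms were all lower in point estimate, by at most 0.21 on the log2 scale, and none of them passed. Of all tested genes 49.1% were lower. Srebf1 was the gene with the largest difference in the other direction, without passing. By title genotype none of the 31 genes passed, as was true of all 17765 genes (0% called in either direction).

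Acly was between 375 and 412 CPM in the C201R libraries by name (median 388) and between 429 and 477 CPM in the WT libraries (median 460). The 2 groups did not overlap, with library 9 highest among the C201R libraries and library 8 lowest among the WT libraries. The log2 difference was -0.23 ± 0.03 (SE; edgeR adjusted p = 0.00578), a level 14.5% lower. It passed with each of the 12 libraries left out in turn (edgeR adjusted p from 0.00291 to 0.0412), but not on the log2(TPM + 1) scale with limma (-0.18 ± 0.05, adjusted p = 0.195). By title, the same gene gave -0.09 ± 0.06 (edgeR adjusted p = 0.836).

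**Figure D2:**
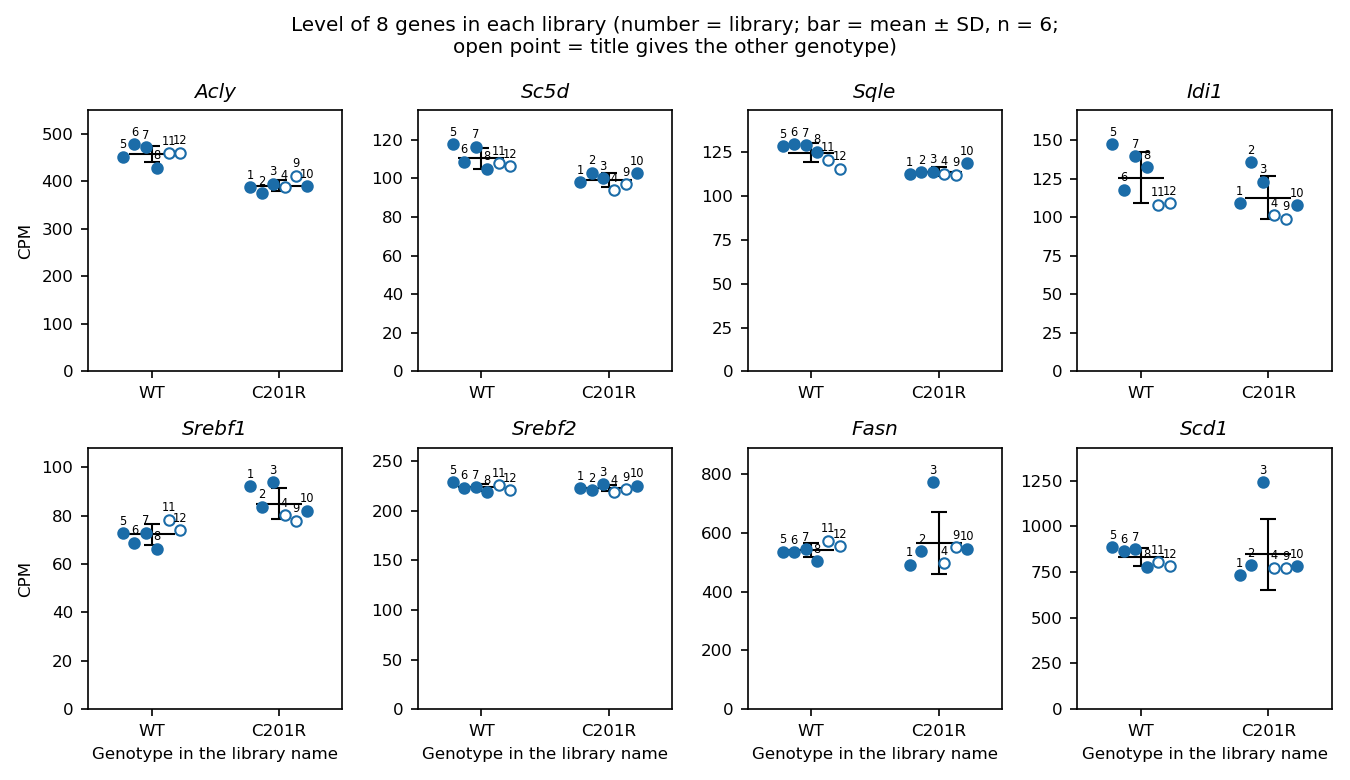
Level in CPM of 8 genes in each library, grouped by the genotype in the library name, with mean and SD over 6 libraries; numbers are library numbers and open points are libraries whose title gives the other genotype. Acly and Sc5d separate without overlap, Srebf2 is level, and library 3 alone is high for Fasn (773.7 CPM) and Scd1 (1242.5 CPM).

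In the mevalonate arm, which builds isoprenoid units from acetyl-CoA, all 7 genes were lower in C201R libraries by name (median of the log2 differences -0.13), and 5 of the 7 had an unadjusted p under 0.05. Idi1, the isomerase of isopentenyl diphosphate, had the largest difference of the arm. It ranged from 99.1 to 136 CPM in C201R libraries (median 108) and from 108 to 147 CPM in WT libraries (median 125), and the groups overlapped. The log2 difference was -0.21 ± 0.09 (edgeR adjusted p = 0.357). Hmgcs1 ranged from 528 to 660 CPM in C201R libraries (median 589) and from 576 to 747 CPM in WT libraries (median 629). Libraries 4 and 9 were its 2 lowest and library 5 its highest, and its difference was -0.16 ± 0.07 (edgeR adjusted p = 0.387). Fdps (farnesyl diphosphate synthase) gave -0.15 ± 0.05, Acat2 (a thiolase that joins acetyl-CoA units) -0.13 ± 0.04 and Pmvk (phosphomevalonate kinase) -0.12 ± 0.04, with edgeR adjusted p from 0.173 to 0.267. Mvk (mevalonate kinase, -0.10 ± 0.06) and Mvd (mevalonate diphosphate decarboxylase, -0.08 ± 0.06) had unadjusted p above 0.05.

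In the squalene to cholesterol arm all 11 genes were lower by library name, with a median of -0.14, and 9 of the 11 had an unadjusted p under 0.05. The shares of all tested genes were 49.1% and 6.81%, and those of genes at least as abundant 58.9% and 10.5%. Sc5d, the lathosterol oxidase, came nearest to the threshold. It ranged from 93.9 to 103 CPM in C201R libraries (median 99.2) and from 105 to 118 CPM in WT libraries (median 108), so its groups did not overlap. Its log2 difference was -0.17 ± 0.04 (edgeR adjusted p = 0.0591). Acly and Sc5d were the only 2 of the 31 genes whose groups were apart, both lower, where 1.05% of all tested genes were apart in that direction and 0.585% in the other. Sqle, squalene epoxidase, was between 112 and 119 CPM in C201R libraries (median 113) and between 116 and 130 CPM in WT libraries (median 127). The 5 C201R libraries other than library 10 were below every WT library, and the difference was -0.14 ± 0.03 (edgeR adjusted p = 0.0649). Nsdhl, an X-linked sterol dehydrogenase of the C4 demethylation step, ranged from 32.1 to 38.3 CPM in C201R libraries (median 35.1) and from 36.8 to 43.3 CPM in WT libraries (median 40.2). Only library 8 among the WT libraries lay within the C201R range, and the difference was -0.20 ± 0.05 (edgeR adjusted p = 0.106). Cyp51, lanosterol demethylase, gave -0.14 ± 0.04 (edgeR adjusted p = 0.14).

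The other enzymes of this arm did not come nearer to the threshold. Ebp (an X-linked sterol isomerase) gave -0.19 ± 0.06, Hsd17b7 -0.18 ± 0.07, Msmo1 -0.14 ± 0.05, Tm7sf2 (a sterol C14 reductase) -0.13 ± 0.06 and Dhcr7 (the last reductase of the Kandutsch-Russell route) -0.12 ± 0.04. Their edgeR adjusted p lay between 0.185 and 0.386. Fdft1, squalene synthase, differed by -0.03 ± 0.04, and Lss, lanosterol synthase, by 0.00 ± 0.06. Both enzymes act directly before or after Sqle in the pathway, and their WT and C201R ranges overlapped.

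Read as a count, 27 of the 31 genes were lower by library name, with a median of -0.10, beside 49.1% of all tested genes and a median of 0.00. Among the 6243 genes with a mean TPM at least that of the lowest of the 31, 58.9% were lower. An unadjusted p under 0.05 with a lower level was seen for 17 of the 31, beside 6.81% of all tested genes and 10.5% of the 6243, and 14 of the 17 were enzymes of the sterol arms. In the other direction it was seen for 1 gene, Srebf1, beside 5.98% of all tested genes. These genes were picked with earlier results of the same data known, so the counts describe the set and test nothing. In bulk RNA, fewer cells of a type and less RNA per cell cannot be told apart.

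**Figure D3:**
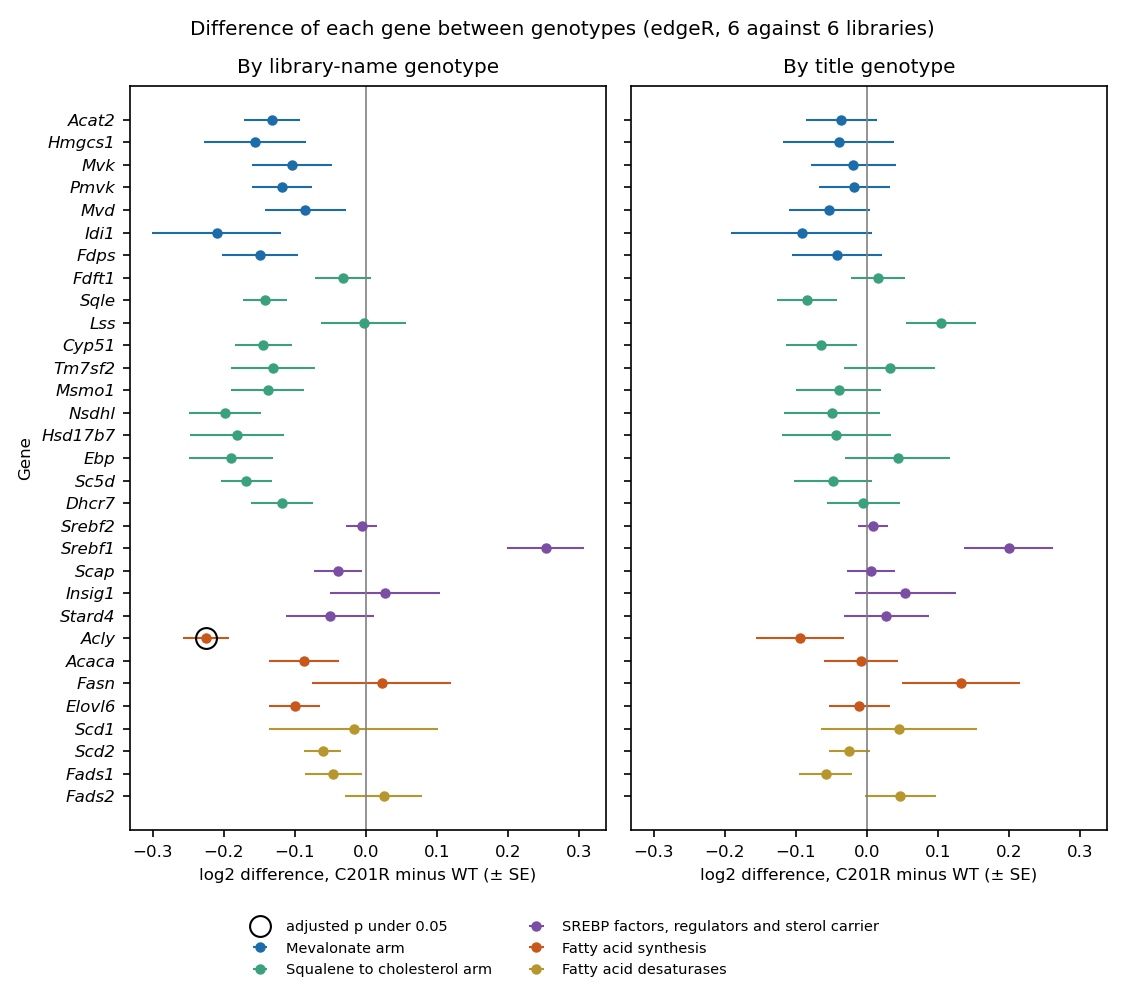
Log2 difference, C201R minus WT, with its standard error (edgeR, 6 against 6 libraries) for each gene by library name (left) and by title (right), coloured by role. On the left the 18 sterol enzymes lie at or below 0, Acly is circled as the 1 gene that passed and Srebf1 is the point farthest to the right; on the right most points lie within 0.1 of 0.

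Of the genes that regulate the pathways, Srebf1 alone had an unadjusted p under 0.05 by library name. Srebf2 was between 219 and 227 CPM in C201R libraries by name (median 222) and between 219 and 229 CPM in WT libraries (median 224). The groups covered nearly the same range and the difference was -0.01 ± 0.02 (edgeR adjusted p = 0.943). Srebf1 ranged from 77.8 to 93.8 CPM in C201R libraries (median 82.8) and from 66.3 to 78.2 CPM in WT libraries (median 72.8). Only library 9 with C201R in its name and library 11 with WT in its name overlapped, and the difference was 0.25 ± 0.05 (edgeR adjusted p = 0.0588), 19.2% higher. These counts do not separate the Srebf1 transcript forms. Scap differed by -0.04 ± 0.03, Insig1, which retains SCAP and is itself an SREBP target, by 0.03 ± 0.08, and Stard4 by -0.05 ± 0.06.

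Among the genes of fatty acid synthesis other than Acly, Elovl6, which lengthens palmitate, had a log2 difference of -0.10 ± 0.04 (edgeR adjusted p = 0.267) and Acaca, acetyl-CoA carboxylase, gave -0.09 ± 0.05 (edgeR adjusted p = 0.502). Fasn gave 0.02 ± 0.10. Its C201R libraries by name lay between 492 and 551 CPM apart from library 3, which was at 774 CPM, and its WT libraries lay between 503 and 574 CPM. Scd1 had the same library out of line, at 1242.5 CPM against 731 to 787 CPM in the other 5 C201R libraries and 779 to 887 CPM in WT libraries. Of the 8 tested fat markers, 6 were also highest in library 3, Adipoq, Fabp4 and Cfd among them. Ucp1 (0.15 TPM in library 3 against 13.35 TPM in library 2) and Cidea (5.33 against 8.68 TPM) were highest in library 2. The 8 fat markers summed to 642 TPM in library 3 and to between 6.30 and 81.85 TPM elsewhere. Skeletal muscle markers summed to 3540 TPM in library 3, the highest of the 12. The part of fat and muscle markers in the Fasn and Scd1 values was not tested. Without library 3, Fasn gave -0.05 and Scd1 -0.12, neither passing (edgeR adjusted p = 0.686 and 0.311). The other desaturases varied little. Scd2 was lower by name (-0.06 ± 0.03, edgeR adjusted p = 0.345), Fads1 gave -0.05 ± 0.04 and Fads2, the delta-6 desaturase, gave 0.02 ± 0.05.

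To follow the sterol enzymes library by library, each gene was centred on its mean log2 CPM over the 12 libraries, and the median over the 18 enzymes was taken. It was lowest in libraries 4 and 9 (-0.11 in both), where all 18 enzymes were below their mean, and highest in libraries 5, 7 and 6 (0.12, 0.10 and 0.09). In library 5, 8 of the 18 enzymes had their highest value. Libraries 1, 2 and 3 lay at -0.08, -0.04 and -0.05 and library 10 at 0.01. Libraries 8, 11 and 12 were at -0.01, 0.06 and -0.01, so the WT libraries by name spanned -0.01 to 0.12 and the C201R libraries -0.11 to 0.01. By title, the 2 lowest libraries, 4 and 9, count as WT together with the 3 highest, and the groups covered -0.08 to 0.06 in C201R and -0.11 to 0.12 in WT. In summed TPM the 18 enzymes ran from 1415 to 1589 in C201R libraries by name (1482 ± 58.1, SD, n = 6) and from 1467 to 1653 in WT libraries (1588 ± 72.7).

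**Figure D4:**
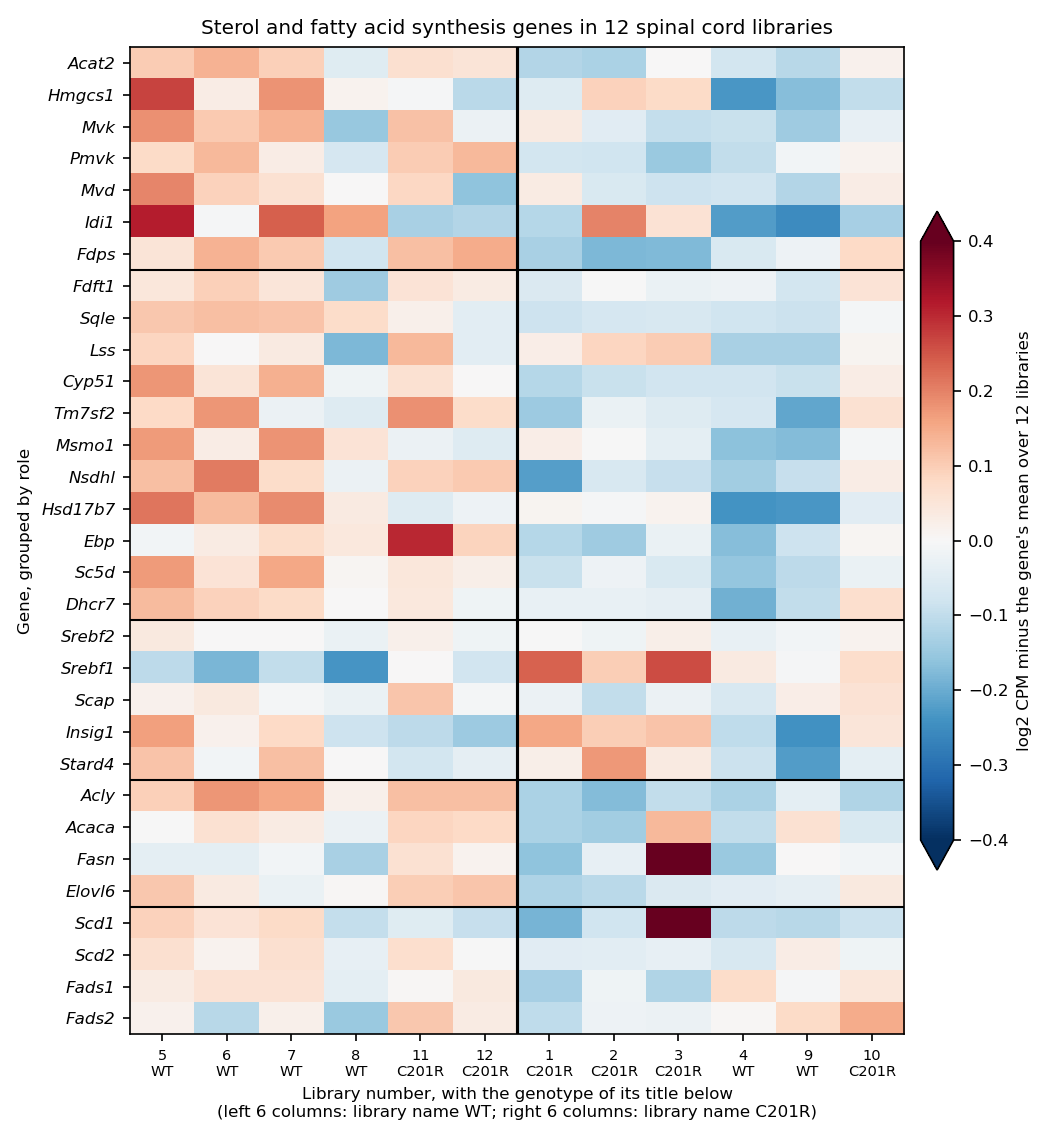
Each gene's log2 CPM minus its mean over the 12 libraries, genes in rows by role and libraries in columns, WT library names left of the line and C201R library names right of it, with the title genotype under each number. The sterol rows are mostly red on the left and blue on the right, Srebf1 has the opposite colours, and library 3 is dark red for Fasn and Scd1.

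By title genotype, 19 of the 31 genes were lower and 12 higher, with a median of -0.02, beside 49.3% of all tested genes lower. The mevalonate arm had all 7 genes lower with a median of -0.04, and the squalene to cholesterol arm had 7 of 11 lower. Srebf1 alone had an unadjusted p under 0.05, with a log2 difference of 0.20 ± 0.06 (edgeR adjusted p = 0.64). No gene of the 31 had groups apart, beside 0.186% of tested genes apart and lower and 0.163% apart and higher. By title, an unadjusted p under 0.05 was found for 583 genes lower (3.28%) and 619 higher (3.48%) among the 17765, and DESeq2 called 16 genes, none of them among the 31 (0.0592% of its tested genes lower and 0.0197% higher). The values for Acly (-0.09), Sqle (-0.08 ± 0.04) and Cyp51 (-0.06 ± 0.05) kept the sign they had by library name, whereas Lss (0.10 ± 0.05) had a higher level in titled C201R libraries without passing (edgeR adjusted p = 0.743).

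In the 8 undisputed libraries, 4 of each genotype, none of the 31 genes passed with edgeR (0.129% of tested genes were called lower and 0.0338% higher), while DESeq2 called 3, Acly, Sqle and Srebf1 (background 1.39% lower and 0.504% higher). Of the 31, 24 were lower, with a median of -0.08, beside 47.9% of tested genes. The share among genes at least as abundant, which by library name was above that of all genes, is not given here. An unadjusted edgeR p under 0.05 was seen for 8 genes lower and 1 higher, beside 6.96% and 6.01% of tested genes. Acly gave -0.23 ± 0.04, Sqle -0.16 ± 0.03 and Srebf1 0.34 ± 0.05 (edgeR adjusted p = 0.0791, 0.0912 and 0.0616). The groups of 4 did not overlap for 5 lower genes, Acly, Sqle, Msmo1, Hsd17b7 and Sc5d, and for Srebf1, which was higher, where 4.71% and 3.82% of all tested genes were apart in those directions. These libraries are among the 12, so the values are not a second measurement.

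Library number, an order the labels give, was added to the fit by library name as a linear term. Then 6 genes passed, all lower: Acly, Sqle, Sc5d, Hsd17b7, Idi1 and Hmgcs1 (1.01% of all tested genes were called lower and 0.315% higher). Idi1 gave -0.37 ± 0.06 (edgeR adjusted p = 0.0141) and Hmgcs1 -0.27 ± 0.06 (edgeR adjusted p = 0.0495), both larger than without the term. The number itself was called for 3 of the 31 genes, each lower with rising number, beside 3.97% of all tested genes lower and 2.41% higher. The slopes were -0.043 ± 0.008 log2 per library for Idi1, -0.029 ± 0.008 for Hmgcs1 and -0.026 ± 0.007 for Stard4 (edgeR adjusted p = 0.0201, 0.0494 and 0.0487). With this term the count of members lower with an unadjusted p below 0.05 was 13, with 11 sterol enzymes among them (9.72% of all tested genes), against 17 and 14 without it. The share among genes at least as abundant is not given for this fit. What the number stands for is not stated in the labels. With the same term in the fit by title none of the 31 passed (0.0394% lower and 0.00563% higher).

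DESeq2, run on the same counts by library name without the term for number, called 6 of the 31 genes, where 1.64% of its tested genes were lower and 0.64% higher. Acly, Sqle, Cyp51, Nsdhl and Sc5d were lower and Srebf1 was higher (DESeq2 adjusted p = 0.00113 for Srebf1, 0.00217 for Sc5d, 0.00377 for Sqle, 0.0175 for Nsdhl and 0.0301 for Cyp51). The log2 differences were those of edgeR to within 0.01, and the same 5 genes other than Acly had edgeR adjusted p between 0.0588 and 0.14.

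Genes of the same pathways outside the set were taken from lists. Of 15 further genes of fatty acid synthesis, 11 were lower by library name and 2 passed. Slc25a1, the mitochondrial carrier that exports the citrate on which Acly acts, fell, with a log2 difference of -0.21 ± 0.04 (edgeR adjusted p = 0.0457). Hsd17b12, a reductase of very long chain fatty acid elongation, also fell (-0.12 ± 0.02, edgeR adjusted p = 0.0232). Slc25a1 ranged from 58.7 to 65.9 CPM in C201R libraries and from 66.4 to 77.0 CPM in WT libraries, without overlap. Hsd17b12 was also apart, at most 90.73 CPM in C201R libraries and at least 94.32 CPM in WT libraries. Of all tested genes 1.05% were apart in that direction. Of 14 tested genes of other sterol synthesis and SREBP processing, 9 were lower and none passed, with Aacs, acetoacetyl-CoA synthetase, at -0.15 ± 0.04 (edgeR adjusted p = 0.113). Of 17 genes of sterol efflux, storage and turnover, 10 were lower, near the 58.9%, and none passed. The 2 of lowest p there were Lipa, lysosomal acid lipase (-0.18 ± 0.04, edgeR adjusted p = 0.0591), and Apoe, the main apolipoprotein of the nervous system (0.11 ± 0.04, edgeR adjusted p = 0.218).

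Markers of the cells that use these pathways were measured in the same libraries. The 15 oligodendrocyte and myelin markers, among them Mbp and Mobp, were present in every library and summed to between 24537 and 29992 TPM in C201R libraries by name and between 27120 and 31587 TPM in WT libraries. Of these, 13 were lower in C201R libraries by name, with a median of -0.06, beside 49.1% of all tested genes, and none passed. The other 2 were higher, and the log2 differences ran from -0.21 to 0.29. An unadjusted edgeR p under 0.05 was seen for 3 lower and 1 higher, beside 6.81% and 5.98% of all tested genes. Opalin was among the higher, at 43.22 to 64.33 CPM in C201R and 39.33 to 54.13 CPM in WT libraries. With the mean log2 level of these markers as a term, Acly gave -0.22 (edgeR adjusted p = 0.02) and Srebf1 0.30 (edgeR adjusted p = 0.0182), both passing (0.422% of tested genes were called lower and 0.129% higher), while 17 of the 18 sterol enzymes had a lower value with a median of -0.13 and none passed. With this term 11 of the 31 genes, 9 of them sterol enzymes, were lower at an unadjusted p under 0.05 (6.2% of all tested genes), against 17 and 14 without it. For this fit too the share among genes at least as abundant is not given. No marker of the lists for neurons, astrocytes, oligodendrocyte precursors, microglia, muscle or blood was at 0 in any library, while the fat markers Plin1 and Cidec were listed at 0 in 2 libraries and 1 library.

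Markers of other cells in or near the cord also varied, and their part in the sterol values was not tested. Schwann cells, the myelinating cells of peripheral nerve and roots, were followed by 5 markers (Pmp22, Prx, Cldn19, Ncmap and Drp2), which summed to between 360.7 and 664.4 TPM in C201R libraries by name, median 479.6 TPM, and between 270.5 and 864.9 TPM in WT libraries, median 735.7 TPM. Both ends of that range were WT libraries, library 8 at the bottom and library 5 at the top. By name 4 of the 5 were lower in C201R libraries with a median of -0.05, by title all 5 were higher with a median of 0.12, and none passed in either grouping. The 6 blood markers were all higher in C201R libraries by name with a median of 0.68, none of them passing, and their sums ran from 2218 to 10102 TPM against 1516 to 4195 TPM. The 10102 TPM was that of library 2. With library number as a term, 4 of the 6 blood markers were lower and 2 higher, with a median of -0.10. Of the 9 astrocyte markers, 7 were lower and 2 higher in C201R libraries by name, with a median of -0.02. Slc1a3, a glutamate transporter, was the 1 that passed and was higher (0.18 ± 0.04, edgeR adjusted p = 0.0398), where 0.169% of all tested genes were called higher. Its levels of 121 to 135 CPM overlapped the 108 to 122 CPM of WT libraries. The astrocyte sums were 3834 to 4399 TPM in C201R and 3705 to 4154 TPM in WT libraries by name, and those of neuron markers 3656 to 3961 and 3731 to 3985 TPM. Microglia markers summed to 274.3 to 322.3 and 260.6 to 312.6 TPM, and markers of oligodendrocyte precursors to 90.99 to 116.1 and 95.77 to 122.1 TPM. Skeletal muscle markers ranged widely in both, from 29.67 to 3540 TPM and from 30.93 to 2915 TPM. The C201R and WT ranges overlapped for each of these lists.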

How the data were processed

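Polyadenylated RNA was read as 75-base paired reads from stranded libraries, per the labels' protocols, and Bowtie2 2.2.0 and RSEM 1.2.12 were used, per the submitters' processing notes. Genome build and annotation: not given in the sources used here. The authors deposited an expected count, TPM and FPKM for each gene, per the file headers. Expected counts need not be whole, since RSEM divides reads that fit several genes. They were whole in every library for 14 of the 31 genes, within 0.005. The deposited FPKM was not used, and the deposited TPM served for levels and alternatives.

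Expected counts were rounded, filtered with filterByExpr on the 4 titled groups, scaled by TMM and fitted with edgeR 4.0.16 (R 4.3.3, quasi-likelihood), with titled sex as a term and Benjamini-Hochberg adjustment over 17765 genes at 0.05. SE was taken as the log2 difference over the root of F. No sample value decided a group. The fits were tested on simulated data first. Alternatives were RLE size factors, DESeq2 1.42.0, a mean above 1 CPM, no filter, limma 3.58.1 on log2(TPM + 1) and log2(TPM + 0.1), no sex term, library number or myelin marker level as a term, and each library left out. Python 3.11.15 with pandas 2.3.3 made joins and plots.

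The members and lists were chosen with earlier results of these data known. All 31 members are named. From other pathway lists, called genes are named, or otherwise the 2 of lowest p in each list, and some genes this rule would take, with the results that need them, are not reported here. Cell type lists are given as summed TPM. The Schwann cell list is given by 5 of its markers, chosen without regard to their values.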

Additional observations from a re-analysis of the deposited data

Results flagged for a closer look

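In groups of 6 libraries, a library was singled out when its gap to the next, as a share of the group's range, was above 0.625. Over 124 groups tested this picked 8 values, where chance picks about 1 in 20 groups. Fasn and Scd1 were both picked in library 3, highest among the C201R libraries by title and by name. Fasn was at 773.7 CPM, with the other C201R libraries between 492.5 and 574.2 CPM by title and up to 551 CPM by name. Scd1 was at 1242 CPM, with the others between 731.2 and 803.4 CPM by title and up to 786.7 CPM by name. Library 10 was highest of the C201R libraries by name for Sqle, at 118.7 CPM against 112.3 to 114.1 CPM, and for Cyp51, at 168.7 CPM against 152.9 to 156.9 CPM. Library 8 was lowest of the WT libraries by name for Fdft1, at 104.5 CPM against 118 to 123.3 CPM. Library 11 was highest of the WT libraries by name for Ebp, at 25.27 CPM against 20.23 to 21.7 CPM.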

How the results depend on the processing

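No paired analysis was possible because every library carries its own number. By title, 0 of the 31 genes passed under each of the 9 other settings and with any library left out. By library name the count of 1 became 6 with DESeq2, 0 with limma on log2(TPM + 1) or log2(TPM + 0.1), 6 with library number as a term and 2 with the myelin marker term. It was 1 to 2 with a library left out: Sc5d was added without library 8, Srebf1 without library 9 and Sqle without library 12. In the undisputed libraries the count of 0 became 3 with DESeq2, 2 without a filter and 2 without a sex term. With the myelin marker term it became 1, where 31 of the 17765 tested genes were called lower and 8 higher. It was 0 to 2 with a library left out, reaching 2 (Sqle and Srebf1) without library 10. Shares of all tested genes are not given here for limma, for fits without a filter or a sex term, or with a library left out. Under those settings the counts do not tell the 31 genes from other genes. The causes were not tested.

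Some signs turned. By title, both TPM scales gave Pmvk 0.01, Msmo1 0.00, Hsd17b7 0.02, Dhcr7 0.01, Elovl6 0.02 and Scd2 0.00, and the myelin marker term gave Scap 0.00. By library name, both TPM scales gave Fdft1 0.00, Srebf2 0.03 and Scd1 0.00. Scd1 was 0.03 without a sex term, Insig1 -0.09 with library number, and Lss 0.04, Srebf2 0.01 and Scd1 0.03 with the myelin marker term. Leaving out a library by title gave ranges of -0.05 to 0.00 for Pmvk, -0.05 to 0.02 for Dhcr7, -0.04 to 0.02 for Acaca, -0.03 to 0.02 for Elovl6, -0.02 to 0.06 for Stard4, -0.09 to 0.08 for Scd1, -0.02 to 0.03 for Scap, -0.09 to 0.02 for Hmgcs1, -0.05 to 0.03 for Mvk, -0.10 to 0.00 for Hsd17b7, -0.01 to 0.04 for Fdft1 and -0.02 to 0.08 for Ebp. By library name they were -0.03 to 0.07 for Insig1, -0.12 to 0.03 for Scd1, -0.05 to 0.07 for Fasn, -0.06 to 0.05 for Lss, -0.01 to 0.01 for Srebf2 and -0.03 to 0.07 for Fads2. At these depths and with 6 libraries a genotype by name, none of the 31 genes other than Acly passed with edgeR with titled sex as the only other term, at log2 differences from -0.21 to 0.25.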
